A study of Caenorhabditis elegans with 2 samples.

Results

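The proteasome subunit genes of Caenorhabditis elegans were examined for promoter binding of MADF-3, which has a Myb-like MADF domain of the kind that binds DNA. The family was chosen with earlier results of these data known. Its members were taken by name, as protein-coding genes of the Ensembl WBcel235 annotation whose name starts with pas-, pbs-, rpt- or rpn-. This gave 33 genes of 19973. Of these, 14 encode the core particle and 19 the regulatory particle. Chromatin immunoprecipitation and sequencing was done on 2 biological replicates of whole young adult worms, 63 hours old, synchronised as starved L1 larvae after bleaching. Both came from strain RW12241, in which CRISPR inserted TY1, EGFP and 3xFLAG at madf-3 (st12241[madf-3::TY1::EGFP::3xFLAG] II), and an antibody against GFP was used. There is 1 group and no untagged or input library was analysed here, so comparisons are between subunits and with all protein-coding genes. Whole animals mix all tissues, so a peak cannot be placed in a cell type.

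The proteasome degrades proteins that carry ubiquitin chains. Its core particle is a barrel of outer rings of alpha subunits (PAS) and inner rings of beta subunits (PBS), some of which carry the proteolytic sites. The regulatory particle caps the barrel, with a base whose ring of ATPases (RPT) unfolds the substrate and feeds it in, and a lid of further subunits (RPN) that includes the enzyme that removes ubiquitin. In worms the transcription factor SKN-1A raises proteasome gene expression when proteasome function is impaired.

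MADF-3 promoter peaks lay at 10 of the 33 proteasome genes (30.3%), against 6.26% of all protein-coding genes (1251 of 19973). A promoter peak here is a summit of the thresholded peak list made from both replicates, 2741 peaks in all, within 500 bp of the annotated 5' end of a gene on either side. In the core particle 3 of 14 genes had one (21.4%), pas-1, pbs-1 and pbs-5. In the regulatory particle 7 of 19 had one (36.8%), rpt-1, rpt-3, rpn-3, rpn-9, rpn-10, rpn-11 and rpn-13. A place in the series-wide list does not by itself mean that both replicates passed. With so few genes and no replicate groups, the difference between the particles was not tested. The strongest peaks were at rpt-1 and rpn-3, and these were also the members found in the thresholded list of each replicate on its own.

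The sequences under 7 of the summits are given, those of every upstream summit and of some downstream ones. Of the 8-base words marked below, at least 1 was at 3 of 5 upstream and 0 of 5 downstream member summits. Over the other promoter peaks the shares were 38.6% upstream and 8.9% downstream, and the difference among members was not tested. Each run is 101 bases of build ce11 (RefSeq WBcel235 sequence), 5' to 3' on the strand of the gene and centred on the summit, except that for rpn-11 it ends just before the 5' end, with the summit near its right end. Capitals mark matches, on either strand, to any of the 15 8-base words described with the sequence counts. The stretches are chrV:11982463-11982563 (minus strand) for rpt-1, chrIII:8447099-8447199 (plus strand) for rpn-3, chrII:11239139-11239239 (minus strand) for rpn-9, chrIV:1709892-1709992 (minus strand) for pbs-1 and chrII:4044547-4044647 (minus strand) for rpn-11, all intergenic, and chrIII:6489891-6489991 (plus strand) for rpt-3 and chrV:14422493-14422593 (minus strand) for pas-1, both inside the gene.
rpt-1: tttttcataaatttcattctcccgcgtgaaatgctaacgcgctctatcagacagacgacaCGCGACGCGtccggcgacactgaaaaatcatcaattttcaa
rpn-3: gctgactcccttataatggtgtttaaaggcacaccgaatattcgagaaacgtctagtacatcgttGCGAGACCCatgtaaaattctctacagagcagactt
rpn-9: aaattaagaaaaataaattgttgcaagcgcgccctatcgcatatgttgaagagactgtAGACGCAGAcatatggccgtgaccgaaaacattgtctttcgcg
pbs-1: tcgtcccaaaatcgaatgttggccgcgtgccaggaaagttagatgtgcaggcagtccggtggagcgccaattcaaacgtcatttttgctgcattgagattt
rpn-11: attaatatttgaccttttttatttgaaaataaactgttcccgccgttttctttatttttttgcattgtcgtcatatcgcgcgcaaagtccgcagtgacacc
rpt-3: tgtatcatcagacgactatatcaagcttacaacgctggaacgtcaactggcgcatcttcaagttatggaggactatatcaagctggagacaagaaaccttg
pas-1: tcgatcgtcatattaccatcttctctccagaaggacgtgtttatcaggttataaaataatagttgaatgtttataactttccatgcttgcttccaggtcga

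Of the ATPases of the base, rpt-1 and rpt-3 had a promoter peak and rpt-2, rpt-4, rpt-5 and rpt-6 did not. At rpt-1 (WBGene00004501) the peak spanned 11982442 to 11982576 on V in the intergenic space upstream, with its summit at -116 bp from the 5' end, where negative is upstream. Its signal, the strength of a peak as the authors' peak caller gave it, was 180 in replicate 1 and 210 in replicate 2 (195 ± 21.2, SD, n = 2), each read from the own ranked list of that replicate. With a signal of 405 it ranked 62 of 2741 in the series-wide list, and no other protein-coding 5' end was within 500 bp of the summit. The summits called in the replicates lay at -114 and -106 bp. The peak at rpt-3 (WBGene00004503), from 6489831 to 6490050 on III, was weaker and had its summit in a coding exon at 148 bp. It had 28.4 in replicate 1 and 36.1 in replicate 2 (32.2 ± 5.46, SD, n = 2), ranked 2027 and was in the thresholded list of neither replicate alone.

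Among the other base subunits, the ubiquitin receptor genes rpn-10 and rpn-13 had promoter peaks and the scaffold genes rpn-1 and rpn-2 did not. Both receptor peaks were inside coding exons. The rpn-10 summit (WBGene00004466, peak from 10732177 to 10732396 on I) was at 137 bp, with signals of 41.3 in replicate 1 and 54.0 in replicate 2 (47.6 ± 9.0, SD, n = 2). It ranked 566 and was in the thresholded list of replicate 2 but not of replicate 1. The rpn-13 summit (WBGene00016981, peak from 6341319 to 6341538 on III) was at 499 bp, just inside the window. The summit called in replicate 1 was at 503 bp, just outside it, and that in replicate 2 at 492 bp. The signals of the rpn-13 peak were 42.6 in replicate 1 and 20.6 in replicate 2 (31.6 ± 15.6, SD, n = 2), so replicate 1 was 2.07 times replicate 2. The rpn-13 peak was in neither replicate's thresholded list and not in the conservative list.

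In the lid, 3 of 9 genes had a promoter peak, and all 3 summits were intergenic and upstream. At rpn-3 (WBGene00004460), a lid subunit, the peak from 8447143 to 8447205 on III ranked 151 with a series-wide signal of 211. The replicates gave 119 and 108 (114 ± 7.88, SD, n = 2). The summit was at -204 bp from rpn-3 and at -240 bp from the divergent gene hsp-110, which encodes a heat shock protein, so the peak cannot be given to one of the pair. At rpn-11 (WBGene00004467), the deubiquitinating enzyme of the lid, the peak from 4044459 to 4044678 on II had its summit at -23 bp and signals of 51.9 in replicate 1 and 42.9 in replicate 2 (47.4 ± 6.38, SD, n = 2). It passed in replicate 1 alone. At rpn-9 (WBGene00004465), another lid subunit, the peak from 11239079 to 11239298 on II had its summit at -270 bp, and at -408 bp from the divergent gene T06D8.9. Its signals were 33.9 in replicate 1 and 39.4 in replicate 2 (36.7 ± 3.90, SD, n = 2). Its series-wide signal of 60.1 gave rank 2336, the lowest place of the 10 member peaks, and it was in neither replicate's thresholded list. The other lid genes were rpn-5, rpn-6.1, rpn-6.2, rpn-7, rpn-8 and rpn-12.

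In the core particle, promoter peaks lay at 1 of 7 alpha subunit genes and 2 of 7 beta subunit genes. At pbs-5 (WBGene00003951), the orthologue of a catalytic beta subunit of yeast and mammals, the peak from 14720307 to 14720526 on I had its summit in a coding exon at 60 bp. It had 37.5 in replicate 1 and 61.4 in replicate 2 (49.5 ± 16.9, SD, n = 2), ranked 658 and passed in replicate 2 alone. At pbs-1 (WBGene00003947), also the orthologue of a catalytic subunit, the peak from 1709832 to 1710051 on IV was intergenic, at -197 bp from pbs-1 and -323 bp from the divergent gene K08D12.3. Its signals were 37.6 in replicate 1 and 32.6 in replicate 2 (35.1 ± 3.52, SD, n = 2), and it passed in replicate 1 alone. The orthologue of the remaining catalytic subunit, pbs-2, had no promoter peak, and its nearest summit was 1320 bp downstream of its 5' end, with a signal of 256.

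Among the 10 peaks the replicates differed most at pas-1. At pas-1 (WBGene00003922), an alpha subunit, the peak from 14422433 to 14422652 on V had its summit in an intron at 75 bp, with 70.4 in replicate 1 and 18.8 in replicate 2 (44.6 ± 36.5, SD, n = 2). Replicate 1 was thus 3.75 times replicate 2, and the peak was missing from the conservative list and from the thresholded list of replicate 2. At the other 9 peaks the ratio of replicate 1 to replicate 2 ran from 0.611 at pbs-5 to 2.07 at rpn-13.

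**Figure D1:**
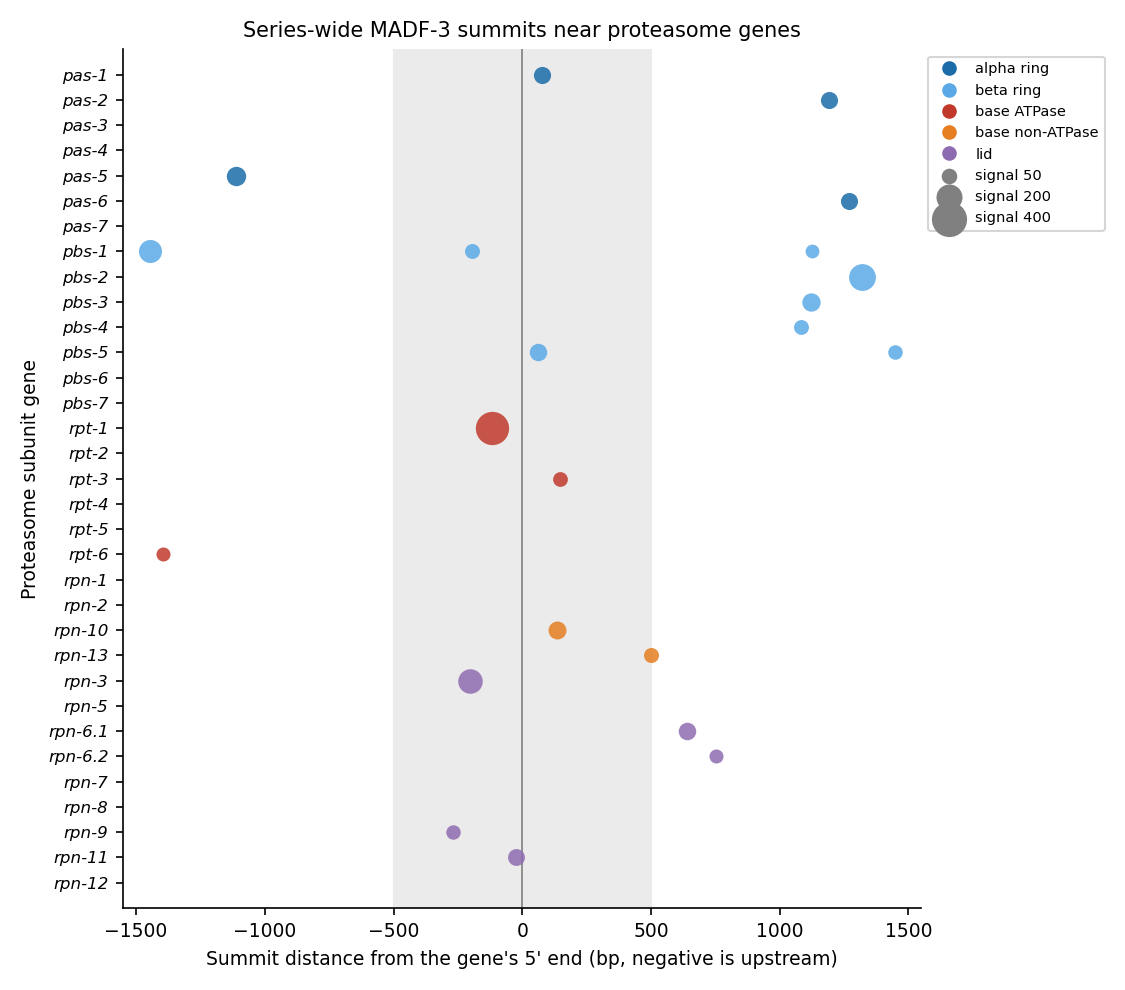
Distance of every series-wide summit within 1500 bp of the 5' end of each of the 33 proteasome genes (x axis, bp, negative upstream), with 1 row for each gene, circle area growing with the signal, colours for the subunit classes and the 500 bp window in grey. Of the 10 summits in the window 5 lie upstream and 5 downstream, and the largest are at rpt-1 and rpn-3.

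Each replicate's own thresholded list held fewer proteasome genes. In replicate 1's list, of 962 peaks, 5 of 33 had a promoter peak (15.2%), against 3.02% of all protein-coding genes, and these were pas-1, pbs-1, rpt-1, rpn-3 and rpn-11. In replicate 2's list, of 863 peaks, 4 of 33 had one (12.1%), against 2.85% of all genes, and these were pbs-5, rpt-1, rpn-10 and rpn-3. Thus 2 genes were in both lists, 7 of the 10 in at least one, and rpt-3, rpn-9 and rpn-13 in neither. Over all genes, 426 of 19973 (2.13%) were in both, where 1251 had a promoter peak in the series-wide list. The member peaks thus do not stand out as more often found in both lists. The count in at least one list was not taken over all genes, so the 7 describes the members alone. The list the authors named conservative held 8 of 33 (24.2%), against 6.14% of all genes, without pas-1 and rpn-13. Among the 1370 stronger peaks of the series-wide list, 6 of 33 had one (18.2%), against 4.0% of all genes. The core particle had 2 of 14 in replicate 1's list and 1 of 14 in replicate 2's, and the regulatory particle 3 of 19 in each.

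The count for the regulatory particle moved with the window and that for the core did not. Within 200 bp, 3 of 14 core genes (21.4%) and 4 of 19 regulatory genes (21.1%) had a peak, against 3.15% of all genes. The shares of the particles were thus alike there, but this depends on summits at the edge of that window. The core gene pbs-1, at -197 bp, was inside it and the regulatory gene rpn-3, at -204 bp, was outside. Within 1000 bp, the core again had 3 of 14 and the regulatory particle 9 of 19 (47.4%), against 8.76% of all genes. The added genes were rpn-6.1, a lid subunit, and rpn-6.2, its second copy in the genome, with summits at 642 and 754 bp and signals of 97.9 and 55.8. Both lie well past the edge of the 500 bp window, while rpn-13, at 499 bp and a signal of 67.0, lies just inside it. The same 2 genes joined where the 5' end of any annotated coding transcript was used, with 12 of 33 genes, against 6.85% of all genes. On the upstream side alone, 1 of 14 core genes and 4 of 19 regulatory genes had a summit, 5 of 33 together (15.2%), against 4.76% of all genes. The other rules left all 10 genes in place, with 6.83% of all genes having any base of a peak in the window and 5.21% having a summit for which theirs was the nearest 5' end.

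**Figure D2:**
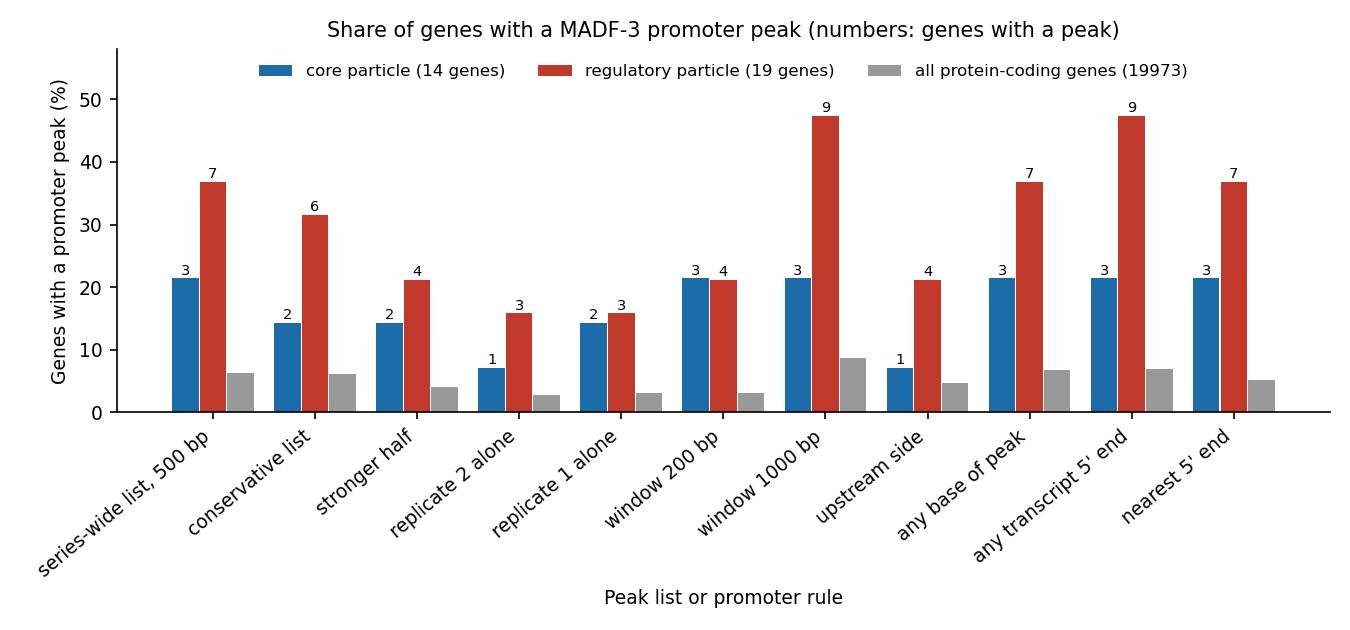
Share of genes with a promoter peak (y axis, %) for the core particle (blue), the regulatory particle (red) and all protein-coding genes (grey), under each peak list and promoter rule (x axis). Numbers over bars count genes. The core share is 21.4% and the regulatory share 36.8% with the series-wide list and 500 bp, and with 200 bp the core share is 21.4% and the regulatory share 21.1%.

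Peaks below the threshold were also read at every member, from each replicate's ranked list, which holds weaker peaks as well. The highest signal of a ranked peak that touched the window of 500 bp around the 5' end was used, and a gene with none was set to 0. Over the 33 genes the median signal was 25.5 in replicate 1 and 21.5 in replicate 2, against 13.9 and 14.5 over all protein-coding genes. Members with a signal above the median gene numbered 27 of 33 in replicate 1 and 29 of 33 in replicate 2. Genes in the top 10% of all genes in both replicates numbered 7 of 33 (21.2%), against 1135 of 19973 (5.68%). All 7 had a promoter peak (pbs-1, pbs-5, rpt-1, rpn-10, rpn-3, rpn-9 and rpn-11). The ranked lists and the series-wide thresholded list draw on the same replicates, so these readings are not independent. The core particle had medians of 24.5 in replicate 1 and 21.2 in replicate 2, and the regulatory particle 28.4 and 22.5. The ranges of the particles overlapped in both replicates, from 0 to 70.4 and 0 to 61.4 in the core and from 0 to 180 and 0 to 210 in the regulatory particle.

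The 23 genes without a promoter peak still spanned a range of ranked signals. Ranked peaks were present at 20 of the 23 in each replicate, from 8.16 to 36.1 in replicate 1 and from 10.5 to 37.5 in replicate 2. The highest by mean percentile among all genes was pbs-3, a beta subunit, with 28.8 in replicate 1 and 27.9 in replicate 2. It was followed by rpn-2, a scaffold of the base, with 34.1 and 22.6, by pas-2, an alpha subunit, with 36.1 and 20.3, and by rpn-7, a lid subunit, with 28.4 and 20.8. The lowest was pbs-4, a beta subunit, with no ranked peak in either replicate. Low values also came from rpn-1, the other scaffold, with 8.16 in replicate 1 and no ranked peak in replicate 2, and from rpt-4, with none in replicate 1 and 10.5 in replicate 2. The lid gene rpn-12 had 20.2 in replicate 1 and none in replicate 2. In the series-wide ranked list, the strongest peak touching the window scored at most 640 at these 23 genes. The lowest score in the thresholded list was 830, and no ranked peak with its summit in their windows reached it. The order of the members differed in the series-wide ranked list. It held a peak at pbs-4 with a signal of 32.3, above 26.5 at rpn-12, and none at rpn-7.

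**Figure D3:**
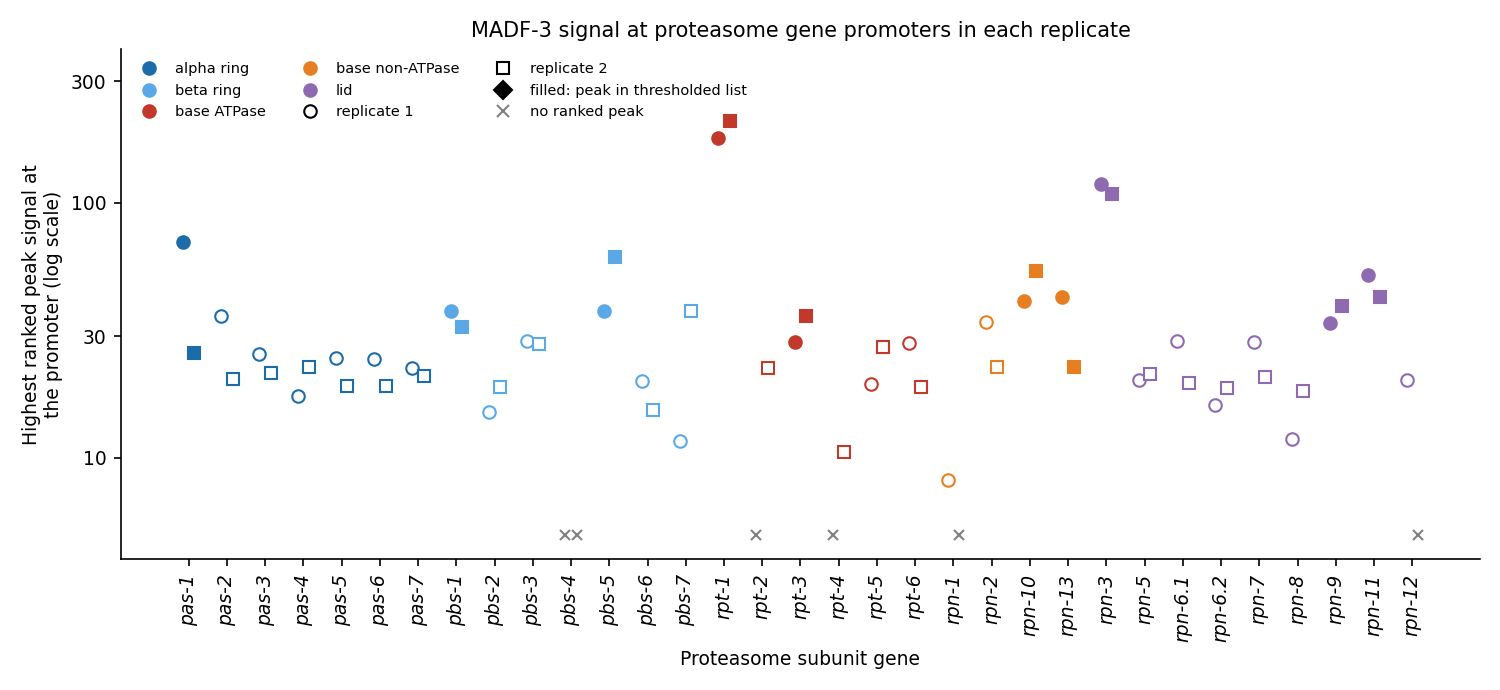
Highest ranked peak signal touching the promoter window (y axis, log scale) for each proteasome gene (x axis) in replicate 1 (circles) and replicate 2 (squares), coloured by class, filled where the gene has a promoter peak in the series-wide thresholded list, and with crosses for no ranked peak. Both replicates of rpt-1 (180 and 210) and rpn-3 (119 and 108) lie above the other members, while the open symbols reach 36.1 in replicate 1 and 37.5 in replicate 2.

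The replicates gave similar signals at most promoters that had a ranked peak in both. Of 28 such genes, 21 were within 1.5-fold and 26 within 2-fold, with no count over all genes to set beside these. Left out were rpt-2 and rpt-4, with 22.5 and 10.5 in replicate 2 and no ranked peak in replicate 1. Also left out were rpn-1 and rpn-12, with 8.16 and 20.2 in replicate 1 alone, and pbs-4, with none in either. The scaling of the signal is unstated, so ratios between the replicates' lists are descriptions alone. Over the 28 genes Spearman's rho was 0.62 on the signal and Pearson's r 0.76 on its log2. These are correlations across genes, which share their libraries and are not independent, and rpt-1 and rpn-3 stand apart from the rest. Of the 28, the 2 genes beyond 2-fold were pas-1, with 70.4 in replicate 1 and 25.8 in replicate 2, and pbs-7, a beta subunit, with 11.6 and 37.5. The value of pas-1 in replicate 2 here belongs to another ranked peak that touches the same window, stronger than the 18.8 that meets the thresholded peak.

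Peaks were also counted by the arrangement of the neighbouring gene. The nearest upstream protein-coding gene pointed the same way at 10 members, pointed away (divergent) at 22, and overlapped the 5' end at 1, rpt-4. Promoter peaks lay at 7 of the 10 with a neighbour on the same strand, against 4.89% of all such genes (497 of 10157). With a divergent neighbour 3 of 22 had one (13.6%), against 8.17% of all such genes (688 of 8420). Among all genes the order was thus the other way round. The 7 were pas-1, pbs-5, rpt-1, rpt-3, rpn-10, rpn-11 and rpn-13. Their gaps to the neighbour were 107 bp at pas-1, 111 bp at pbs-5, 119 bp at rpn-10 and 225 bp at rpn-11. At rpn-13, rpt-3 and rpt-1 they were 463, 479 and 504 bp. At members with a neighbour on the same strand but no peak, the gaps were 23 bp at pbs-3, 55 bp at rpn-6.2 and 1447 bp at pas-5. The 3 divergent members with a peak were pbs-1, rpn-3 and rpn-9. Counting summits upstream of the 5' end alone, 2 of 10 members with a neighbour on the same strand had one, against 3.24% of all such genes. With a divergent neighbour 3 of 22 had one (13.6%), against 6.91%. In replicate 1's own list 3 of the 10 had a peak, against 2.02% of all genes with a neighbour on the same strand, and 2 of the 22 divergent members, against 4.36%. In replicate 2's own list 3 of the 10 had one, against 1.92%, and 1 of the 22, against 4.13%. The grouping was made after the peaks were seen and was not tested.

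**Figure D4:**
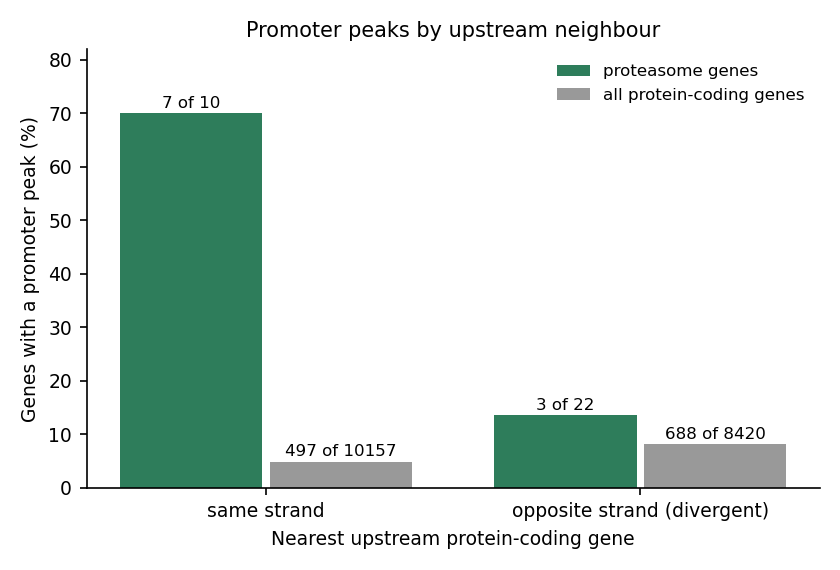
Share of genes with a promoter peak (y axis, %) by the strand of the nearest upstream protein-coding gene (x axis), for proteasome genes (green) and all protein-coding genes (grey), with counts over the bars. Peaks lie at 7 of 10 proteasome genes with a neighbour on the same strand and at 3 of 22 with a divergent one.

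Upstream and downstream summits split the members evenly. The 5 upstream summits were at rpt-1, rpn-3, rpn-9, rpn-11 and pbs-1, and the 5 downstream ones at pas-1, pbs-5, rpt-3, rpn-10 and rpn-13. Over all 1251 genes with a promoter peak, the strongest summit was downstream at 316 (25.3%). The share differed with the neighbour, at 35.6% of such genes with a neighbour on the same strand and 16.3% of those with a divergent one. All 5 downstream member summits were among the 7 with a neighbour on the same strand, and 0 among the 3 divergent. Downstream signals in the series-wide list ran from 64.0 at rpt-3 to 104 at rpn-10, and upstream signals from 60.1 at rpn-9 to 405 at rpt-1, so the sides overlap apart from rpt-1 and rpn-3. Many worm messages are trans-spliced, so their annotated 5' end can lie downstream of where transcription starts. From such a start a downstream summit would lie further away than the distance given here. Start sites were not read here, and any bearing on the side of the summits was not tested.

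Words found at summits over the genome were present at 3 of the 5 upstream summits and at 0 of the 5 downstream ones. The 15 8-base words, each counted with its reverse complement, were those with the largest surplus of peaks that held them in the 101 bases at the summit over the 101 bases 300 bp to one side, counted over the 2731 peaks that are not at a proteasome promoter. Of those peaks, 520 held at least 1 word at the summit and 95 in the flank. The words were picked for such a surplus in the same peaks, so this excess was set by the choice. Among their summits at promoters, 284 of 735 upstream ones (38.6%) and 30 of 337 downstream ones (8.90%) held a word. The rpt-1 summit held CGCGACGC and the overlapping CGCGTCGC on the other strand. CGCGACGC was at the summit of 106 of the 2731 peaks (3.88%). The rpn-3 summit held the overlapping words GCGAGACC and CGAGACCC, the first of which was at 84 peaks (3.08%). The rpn-9 summit held AGACGCAG, at 106 peaks (3.88%), and the overlapping GACGCAGA. The summits of pbs-1 and rpn-11 held none of the 15.

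The same words were then counted in member promoters. In the 300 bases from 250 before to 50 after the 5' end, 10 of 33 members (30.3%) held a word, against 2273 of 19973 genes (11.4%). Of these 10 members 3 had a promoter peak (rpt-1, rpn-3 and rpn-9), as did 7 of the 23 members without a word. The shares of members with and without a word were thus alike. Over all genes 359 of the 2273 with a word had a promoter peak (15.8%), against 6.26% of all 19973 genes, with or without a word. The 15.8% is not independent of the words, which were picked from peaks of the same list. The other 7 members with a word were pas-2, pas-3, pas-5, pas-7, rpt-2, rpn-6.1 and rpn-12. The core of the SKN-1 binding site, searched as GTCAT or ATCAT on both strands, was in the same stretch of 28 of 33 members (84.8%), against 72.1% of all genes, and was in 7 of the 10 members with a peak, against 65.5% of all genes with a peak. GAGAGA was in 6 of 33 (18.2%), against 21.8% of all genes, and in 0 of the 10 members with a peak, against 26.2% of all genes with a peak. These counts cover the promoter stretch alone, and GAGAGA or its reverse complement is in the 101 bases at the summits of pas-1 and pbs-5. GCGCGAA was in 1 of 33, pas-3, against 1.92% of all genes, while TATCGATA and CTGCGTCT were in 0 of 33, against 0.521% and 3.54%. CTGCGTCT is the reverse complement of AGACGCAG. At rpn-9 the summit's AGACGCAG lies just upstream of this stretch, and the word inside it is GAGCGCGC. The median GC content at the 10 member summits was 44.1%, against 47.5% at the other 2731, and that of member promoters was 34.3%, equal to that of all promoters.

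The members lay on the autosomes, and none was on X. Promoter peaks were at 2 of 10 members on I, 2 of 7 on II, 3 of 8 on III, 1 of 3 on IV and 2 of 5 on V. Over all genes of these chromosomes the shares were 9.07%, 6.49%, 9.36%, 7.01% and 4.55%. Of the 23 members without a promoter peak, 2 had the nearest summit past the window and within 1000 bp, 8 past that and within 2000 bp, and 6 more than 10000 bp away, with a median distance of 2578 bp.

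Genes that work with the proteasome were read from a list of 79, of which 78 matched the annotation. Promoter peaks lay at 17 of the 78 (21.8%), against 6.26% of all genes. In each replicate's own list 10 of the 78 had one (12.8%), against 3.02% of all genes in replicate 1's list and 2.85% in replicate 2's. Of 8 genes of proteasome-associated factors 4 had one, namely ubh-4 and usp-14, deubiquitinating enzymes that bind the regulatory particle, aip-1, whose product associates with proteasomes under arsenite stress, and ecps-1, a homologue of the yeast proteasome factor Ecm29. Their signals in replicates 1 and 2 were 49.7 and 33.3 at ubh-4, and 37.0 and 27.0 at usp-14. At aip-1 they were 43.6 and 54.2, and at ecps-1 50.9 and 45.1. Of 5 genes of the SKN-1A pathway, skn-1 itself had a peak, at -67 bp, with 23.9 in replicate 1 and 40.6 in replicate 2 (32.3 ± 11.8, SD, n = 2), and ddi-1, png-1, sel-1 and sel-11 had none. The skn-1 peak was in neither replicate's thresholded list and not in the conservative list. Of the other partners with a peak, usp-14, ufd-3, ubxn-2 and ubc-3 were also in neither replicate's list. The conservative list also lacked ubc-3 and ubc-7.

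The strongest peak among these partners was at cdc-48.1, which encodes the ATPase that extracts ubiquitinated proteins and passes them on to the proteasome. Its summit was at -171 bp, its signals were 258 in replicate 1 and 230 in replicate 2 (244 ± 20.1, SD, n = 2), and it ranked 43 of 2741, ahead of rpt-1. Of 16 genes of shuttles and the CDC-48 complex, ufd-3 and ubxn-2 also had a peak. The divergent neighbour of rpn-12 is rad-23, a ubiquitin shuttle, and neither had one. Of 9 genes of ubiquitin, ubiquitin-like proteins and their activating enzymes, the ubiquitin genes ubq-1 and ubq-2 had a peak, at 447 bp and -481 bp, and the summit at ubq-2 was nearer to frg-1. Of 25 conjugating enzyme genes 4 had one, ubc-3, ubc-6, ubc-7 and ubc-9, the last of which conjugates SUMO and had 77.0 and 71.4 (74.2 ± 3.96, SD, n = 2). Of 15 cullin and adaptor genes, elc-1, cul-4 and its adaptor ddb-1 had one. Elongin C, encoded by elc-1, had 115 and 93.9 (104 ± 14.6, SD, n = 2), with the summit at 415 bp, and the summit at ddb-1 was nearer to M18.6.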

How the data were processed

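Chromatin immunoprecipitation of MADF-3 in 2 biological replicates was read from the peak lists the authors deposited on build ce11. The signal of each peak is the strength the authors' peak caller gave, with its scaling unstated. The aligner and the caller are also not given in the sources used here. Each score, a whole number up to 1000, was made by the authors from the irreproducible discovery rate (IDR), a measure of how reproducibly peaks rank. The deposited lists hold no read counts, so depth is unknown, and no read-level interval is given. Per the labels, each replicate has its own biosample record, and no label says how the cultures were kept apart. Per the deposited descriptions, series-wide lists draw on both replicates' alignments and each replicate's list on its own, plus further inputs of unstated content.

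Genes came from Ensembl release 115 (WBcel235) and sequence from the RefSeq copy of that assembly, whose 6 nuclear chromosomes hold every peak. Each peak's summit was placed with the deposited offset and compared with gene 5' ends (window 500 bp). Python 3.11.15, NumPy 2.4.6, SciPy 1.17.1 and matplotlib 3.10.9 were used, and the gene search was checked on planted summits. No significance test was run: there is 1 group, members were chosen by name, and counts are set beside all genes. Members and lists were chosen with earlier results of these data known. Named genes were every member or partner with a promoter peak, genes sharing its summit, and the 4 highest and 4 lowest of the other members by ranked signal. Genes beside these (pbs-2, pbs-7, rpn-6.1, rpn-6.2, other subunits and partners without a peak) were named after their values were seen. Counts were repeated with each replicate alone, the 1370 stronger peaks, the conservative list, windows of 200 and 1000 bp, the upstream side, any peak base, any transcript's 5' end and the nearest 5' end. The 8-base words and the neighbour groups were chosen after seeing the data.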

Additional observations from a re-analysis of the deposited data

How the results depend on the processing

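Counts of genes with a promoter peak stayed within 1.5 times the values of the series-wide list and 500 bp window with the conservative list, 1000 bp, any base of the peak, any transcript's 5' end and the nearest 5' end. Leaving out rpn-6.2, an alternative added after seeing the data, left 10 members and 7 regulatory genes with a peak. Without replicate 1 or without replicate 2, the counts ranged from 4 to 5 for all members, from 1 to 2 for the core, stood at 3 for the regulatory particle, and at 10 for the partner genes. Each replicate's list is shorter than the series-wide list, so its background is lower too. Among the 1370 stronger peaks the counts were 6 for all members and 4 for the regulatory particle. With 200 bp the regulatory particle had 4 and the partner genes 8. On the upstream side alone the counts were 5 for all members, 1 for the core and 4 for the regulatory particle. The median ranked signal over all 33 members, with 0 for no ranked peak and averaged over the replicates, was 23.5, and 19.7 with 200 bp. Of the 28 members with a value in both replicates, 6 had none in at least one of them with 200 bp. Of single genes, the signal changed by more than the SD at rpn-13 with the summit inside 500 bp and at pbs-6 with 200 bp. The cause of these changes was not tested beyond the shorter lists and narrower windows themselves. No paired analysis was possible because both samples belong to 1 group. Depth is unknown, so nothing can be said of peaks too weak to be listed.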
